A study of Mus musculus with 24 samples.

Results

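Immediate early genes are genes that a cell transcribes within minutes of a stimulus, before any new protein has to be made. The 10 such genes followed here are the AP-1 subunits Fos, Fosb and Junb, the zinc finger transcription factors Egr1 and Egr2, the neuron-restricted transcription factor Npas4, the orphan nuclear receptor Nr4a1, the synaptic protein gene Arc, the nuclear protein gene Ier2 and Dusp1, which encodes a phosphatase that switches off MAP kinases. They were taken as a named set of 10 genes out of 53465 genes listed, and all 10 passed the expression filter that left 18425 genes for testing.

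The data are read counts per gene from the brains of 12 mice. Of these, 6 were of the inbred strain CAST/EiJ (CAST), derived from wild Mus musculus castaneus, and 6 were of WSB/EiJ (WSB), derived from wild Mus musculus domesticus. The study looked for genes that differ between strains whose infarcts differ in volume after occlusion of a cerebral artery. Labels name the tissue as brain and give strain, animal number, sequencing lane and library index, but no sex, age, treatment, time of day or manner of killing, so nothing is known of the stimulus state of either strain.

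In brain, synaptic activity raises calcium and activates MAP kinases in neurons, and both act on transcription factors already bound at these genes. CREB binds the cAMP response element, whose letters are TGACGTCA, and the serum response factor with its Elk partners binds the CArG box. Npas4 is known to respond to calcium influx in neurons, while Fos, Egr1, Junb and Dusp1 also respond to growth factors and stress. The transcripts are short-lived, so their level depends on the minutes before the tissue was taken.

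Gene reads per animal, with both lanes of an animal summed, ranged from 38771135 to 46513232 in CAST and from 32982569 to 45772849 in WSB. Reads aligned to several places made up 15.62% to 16.14% of what was counted in CAST and 16.99% to 17.51% in WSB, without overlap. Whether reads of both strains aligned equally well at each gene was not tested, nor was the part of alignment in the strain differences below. Levels are given as CPM, read counts divided by the library size after TMM scaling and set to a common total. Member counts per animal lay between 108 reads, for Ier2 in WSB_138, and 19931 reads, for Arc in WSB_120, so the error from counting alone was at most 9.62% of a value. Summed markers of neurons (Snap25, Syt1, Rbfox3, Nefm and Stmn2) lay between 4266 and 5085 CPM in CAST and between 4710 and 5673 CPM in WSB, with none of the 5 at 0. A pair of libraries stood apart in cerebellar or olfactory bulb markers. CAST_142 had 911.5 CPM of summed cerebellar markers against at most 57.6 CPM in the other 11 animals, and WSB_100 had 249.3 CPM of olfactory bulb markers against at most 54.9 CPM. The strain differences of all members, the counts of calls and the co-variation are therefore also given without these animals. Other regional sums varied between libraries too, and leaving out this pair does not remove that. Summed thalamic markers lay between 84.8 and 285.8 CPM in CAST and between 60.5 and 291.5 CPM in WSB, highest in WSB_138. Striatal markers lay between 324.9 CPM, in CAST_142, and 1507 CPM in CAST, and between 874 and 1464 CPM in WSB. Their part in the member levels was not tested. A gene whose whole body lies inside other genes can be listed at 0 because of how reads were assigned, so a listed 0 says nothing of its expression. This applies to each of the 6 genes of the lists below that are listed at 0 in all 12 animals (Srf, Csrnp1, Amigo3, Pcp2, Cbln1 and Alas2). In whole tissue, more cells that express a gene and more RNA per cell cannot be told apart.

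Promoter sequences are shown for 6 members to let the response elements be read beside the expression results. RefSeq windows of 300 bases, from 250 before to 50 after a start site, were searched for 7 members (Fos, Fosb, Junb, Egr2, Npas4, Nr4a1 and Dusp1). Upstream bases outside the member's own GENCODE exons are printed, 5′ to 3′ on the gene's strand, except for Npas4, whose 30 printed bases lie in such an exon. They are reference genome sequence (build GRCm38.p6) and not that of CAST or WSB. Capitals mark the cAMP response element TGACGTCA or its core TGACG, which reads CGTCA on the other strand, the CArG box, and TATAA, which was searched on the gene's strand only. A full element holds a core on each strand, and these overlap.
Fos: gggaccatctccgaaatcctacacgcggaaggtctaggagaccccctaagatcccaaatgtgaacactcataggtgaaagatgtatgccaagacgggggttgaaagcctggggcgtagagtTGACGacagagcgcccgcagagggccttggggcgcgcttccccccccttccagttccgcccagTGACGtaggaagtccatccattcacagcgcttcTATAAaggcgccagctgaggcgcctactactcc
Fosb: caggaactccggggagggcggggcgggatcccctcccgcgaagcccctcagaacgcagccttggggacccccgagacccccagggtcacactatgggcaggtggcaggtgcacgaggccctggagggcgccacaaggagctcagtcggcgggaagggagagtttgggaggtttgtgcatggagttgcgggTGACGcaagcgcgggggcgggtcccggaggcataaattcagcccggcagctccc
Nr4a1: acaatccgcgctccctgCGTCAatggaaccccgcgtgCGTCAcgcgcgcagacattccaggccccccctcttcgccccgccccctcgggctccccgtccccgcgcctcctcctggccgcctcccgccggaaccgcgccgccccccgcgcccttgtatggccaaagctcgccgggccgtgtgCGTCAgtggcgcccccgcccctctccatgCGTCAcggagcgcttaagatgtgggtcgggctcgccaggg
Npas4: cgttcgaCGTCAcgggaTGACGtcggaagt
Egr2: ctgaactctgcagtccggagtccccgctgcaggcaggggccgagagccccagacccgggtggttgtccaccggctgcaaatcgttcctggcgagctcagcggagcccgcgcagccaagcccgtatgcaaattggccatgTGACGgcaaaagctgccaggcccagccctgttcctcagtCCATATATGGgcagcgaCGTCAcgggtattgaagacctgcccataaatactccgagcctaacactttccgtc
Dusp1: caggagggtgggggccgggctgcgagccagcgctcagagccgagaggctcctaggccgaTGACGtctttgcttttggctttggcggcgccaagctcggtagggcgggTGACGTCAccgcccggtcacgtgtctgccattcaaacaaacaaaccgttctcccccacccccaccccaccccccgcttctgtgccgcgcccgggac

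The Fos stretch is chr12:85473640-85473889 on the plus strand. It has cores of the cAMP response element from -129 to -125 and from -66 to -62, counted back from the start site, and TATAA from -33 to -29. The Fosb stretch, chr7:19310052-19310295 on the minus strand, holds a single core from -60 to -56. Nr4a1 (chr15:101266596-101266845, plus strand) has 4 cores, all on the opposite strand, of which the nearest to the start lies from -40 to -36. The Npas4 window lies wholly inside an exon of a longer GENCODE transcript, which is why only 30 bases are given (chr19:4990128-4990157, minus strand), with 2 cores on opposite strands, separated by 5 bases. Egr2 has 5 RefSeq windows, of which the third (chr10:67537619-67537868, plus strand) has a CArG box from -72 to -63 between 2 cores. The Dusp1 stretch (chr17:26508520-26508722, minus strand) holds a full cAMP response element from -143 to -136.

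All 7 members searched had at least 1 core in a window, whereas 23.05% of the 27025 genes in the promoter table did, and 20.8% of its 32851 windows. A full element was present in 1 of the 7 members, Dusp1, against 2.03% of genes (1.79% of windows). The CArG box was present in 1 of the 7, Egr2, against 1.81% of genes (1.63% of windows), and TATAA in 4 of the 7 against 20.03% of genes (17.5% of windows). Egr2 has 5 windows, so it had more chances to hold a match than a gene with 1. Egr1 was left out of the search, and no window was at hand for Arc and Ier2. The member counts, that of the CArG box included, therefore say nothing of Egr1, Arc or Ier2. These matches describe the reference letters in a short window, and they say nothing of which factor was bound in these brains.

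All 10 members had a higher fitted level in CAST than in WSB brains, but the strain difference passed the test for only 2 of them, Npas4 and Nr4a1. Differences were tested with edgeR's quasi-likelihood test, and a gene was called at a Benjamini-Hochberg adjusted p under 0.05 over all 18425 genes. Of 10 members, 2 were called higher in CAST, beside 21.5% of all tested genes, and 0 of 10 were called lower, beside 21.2% of all tested genes. At an unadjusted p under 0.05, Fos, Junb, Npas4, Nr4a1 and Ier2 were higher in CAST. At least the 21.5% of all tested genes called higher also pass that level, and the exact share is not given here. At that level, and with DESeq2, the number lower in CAST was also 0. The share called higher is thus close to the background of these strains, and the share called lower is below it, in a set of only 10 genes that vary together. Ranges of CPM overlapped between strains for all 10 members, whereas 13.8% of tested genes had separate ranges with CAST higher. The median log2 fold change of the members was 0.53, beside 0.0046 over all tested genes, of which the middle 50% lay between -0.21 and 0.23. Members move together between animals, as described further on, so 10 differences in a common direction are not 10 separate observations.

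**Figure D1:**
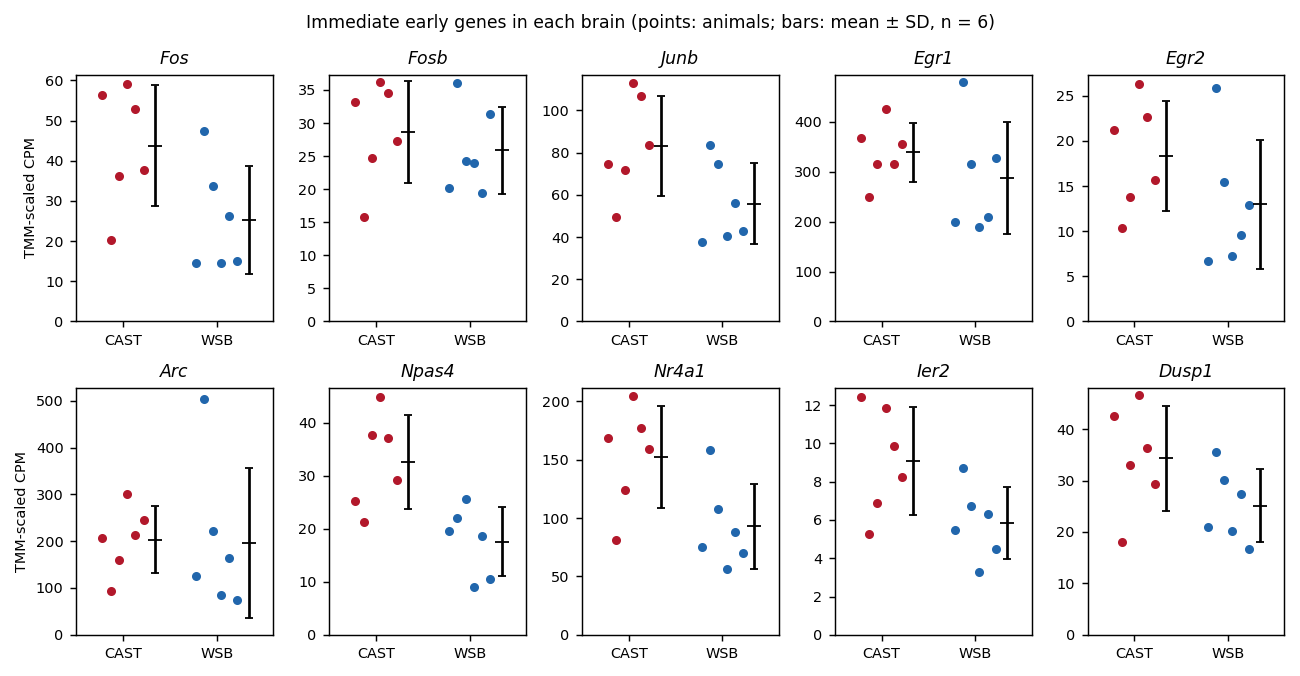
TMM-scaled CPM (y axis, linear from 0) of each immediate early gene in each of 6 CAST (left, red) and 6 WSB (right, blue) brains, with mean ± SD as black bars. The ranges of the strains overlap in every panel; Npas4 comes closest to separation, with 4 of 6 WSB animals below the lowest CAST animal, and a single WSB animal stands high for Arc at 504 CPM.

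Npas4, a neuronal transcription factor that regulates inhibitory synapses, showed the clearest difference. Its levels were 21.2, 33.1 and 44.8 CPM (lowest, median and highest) in CAST, against 9.08, 19.1 and 25.6 CPM in WSB. All 6 CAST animals lay above the WSB median, and 4 of 6 WSB animals lay below every CAST animal. The mean was 32.5 ± 8.82 CPM in 6 CAST brains, against 17.6 ± 6.496 CPM in 6 WSB brains (SD). The log2 fold change was 0.89 ± 0.25 (SE) with an adjusted p of 0.0123 by edgeR. It was called under all 19 alternatives, with log2 fold changes from 0.75 to 1.02. Npas4 lies on chromosome 19 at 4984355-4990316 (GRCm38), and no other gene overlaps it.

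Nr4a1 encodes a nuclear receptor without a known natural ligand, induced in neurons, muscle and immune cells. It had 81.0, 164 and 204 CPM in CAST and 56.1, 82.0 and 159 CPM in WSB. A single CAST animal, CAST_170, lay below the WSB median, and a single WSB animal, WSB_120, lay above 2 of the CAST animals. Means were 152 ± 43.5 CPM in 6 CAST brains, against 92.9 ± 36.7 CPM in 6 WSB brains (SD), a log2 fold change of 0.71 ± 0.25 with an adjusted p of 0.0374 by edgeR. This call was not stable. It was kept in 9 of 19 alternatives and ended without CAST_142, CAST_201, CAST_202 or CAST_203 and without WSB_100, WSB_138, WSB_147 or WSB_169, each left out singly (adjusted p at most 0.0826). Without CAST_142 and WSB_100 together, the log2 fold change was 0.63 with an adjusted p of 0.144. The gene lies on chromosome 15 at 101254269-101274795.

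Fos, Junb and Ier2 had differences of a similar size that missed the threshold. Fos, the best known marker of neuronal activity, had 20.3, 45.4 and 59.1 CPM in CAST and 14.6, 20.6 and 47.3 CPM in WSB. The 3 lowest WSB animals lay together at 14.6 to 14.99 CPM, below every CAST animal, and the other 3 within the CAST range. The log2 fold change of Fos was 0.79 ± 0.33, nearly that of Npas4, with an adjusted p of 0.0719 by edgeR. Junb, an AP-1 subunit that pairs with Fos, had means of 83.2 ± 23.5 CPM in 6 CAST brains, against 55.8 ± 19.3 CPM in 6 WSB brains (SD), a log2 fold change of 0.57 ± 0.23 with an adjusted p of 0.0639 by edgeR. Ier2, the least abundant member, had 9.09 ± 2.82 CPM in 6 CAST brains, against 5.83 ± 1.89 CPM in 6 WSB brains (SD), a log2 fold change of 0.64 ± 0.24 with an adjusted p of 0.0505 by edgeR. DESeq2 called both Junb (adjusted p 0.0318) and Ier2 (adjusted p 0.0234) beside Npas4 and Nr4a1, which makes 4 of 10. Over all genes it called 8253 in either direction, beside 7866 by edgeR.

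Dusp1 and Egr2 had smaller differences. Dusp1 had 34.3 ± 10.2 CPM in 6 CAST brains, against 25.1 ± 7.06 CPM in 6 WSB brains (SD), with a log2 fold change of 0.45 ± 0.22 and an adjusted p of 0.126 by edgeR. Egr2, a factor known from myelinating Schwann cells and from activated neurons, had 18.3 ± 6.06 CPM in 6 CAST brains, against 13.0 ± 7.15 CPM in 6 WSB brains (SD), with a log2 fold change of 0.49 ± 0.32 and an adjusted p of 0.242 by edgeR.

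Egr1, Fosb and Arc differed least between the strains. Egr1, an early transcription factor of learning and plasticity, had 339 ± 59.7 CPM in 6 CAST brains, against 287 ± 112 CPM in 6 WSB brains (SD), a log2 fold change of 0.24 ± 0.22 with a 95% interval from -0.18 to 0.67. Fosb, whose truncated product deltaFosB accumulates on repeated stimulation, had 28.6 ± 7.69 CPM in 6 CAST brains, against 25.9 ± 6.59 CPM in 6 WSB brains (SD), and its interval ran from -0.25 to 0.54. Arc, which acts in the removal of AMPA receptors from synapses, had 94.1, 211 and 301 CPM in CAST against 73.7, 145 and 504 CPM in WSB. The highest Arc level of all 12 animals was thus in WSB, and so was the lowest. Its log2 fold change of 0.06 ± 0.43 had an interval from -0.79 to 0.90, and its sign turned in 6 of 19 alternatives. Adjusted p values by edgeR were 0.403 for Egr1, 0.599 for Fosb and 0.928 for Arc. Each SE was the size of the log2 fold change divided by the square root of the test's F, and the intervals are normal approximations from it. They are narrower than the test implies: for Dusp1 the interval ran from 0.01 to 0.89, yet the unadjusted p by edgeR was 0.0664. Intervals this wide do not show that Egr1, Fosb and Arc were alike in both strains.

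**Figure D2:**
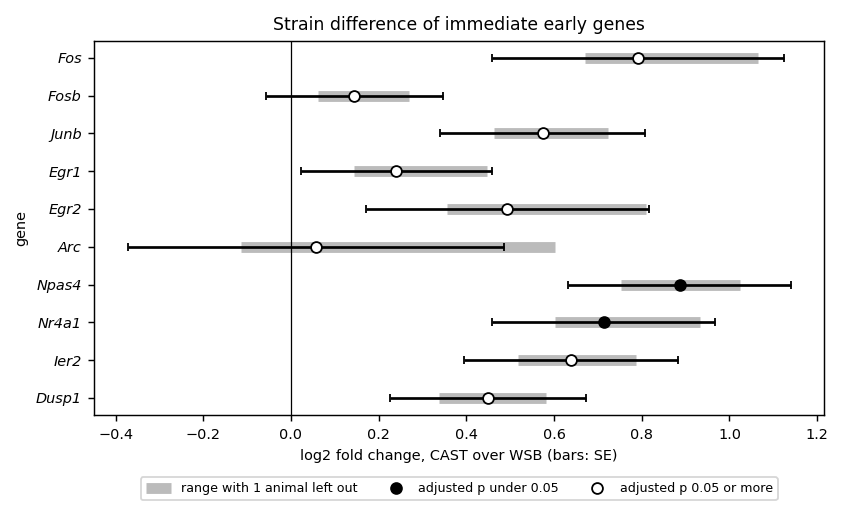
Log2 fold change of CAST over WSB (x axis) for each immediate early gene (y axis), with the SE as thin bars and, in grey, the range of the estimate when each of 12 animals is left out in turn. Filled circles mark the called genes Npas4 and Nr4a1. The grey range of Arc runs from -0.11 to 0.60 and crosses 0, and the other 9 ranges stay above 0.

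The number of members called depended on single animals. With CAST_170 left out, 6 of 10 were called (Fos, Junb, Npas4, Nr4a1, Ier2 and Dusp1), and with WSB_120 left out also 6 of 10 (Fos, Junb, Egr2, Npas4, Nr4a1 and Ier2). Without CAST_142, CAST_201, CAST_202 or CAST_203 or without WSB_100, WSB_138, WSB_147 or WSB_169, Npas4 was the sole call. The same was true without CAST_142 and WSB_100 together, when the log2 fold changes were 0.97 for Npas4 (adjusted p 0.0257), 0.63 for Nr4a1, 0.58 for Fos (adjusted p 0.255), 0.51 for Junb, 0.50 for Ier2, 0.32 for Dusp1 and 0.31 for Egr2. They were 0.13 for Egr1, 0.03 for Fosb and -0.05 for Arc. The estimates of Egr2, Egr1, Fosb and Arc moved by more than 1.5 times from those with all 12 animals. Background calls over all genes, in either direction, moved far less. They numbered 7440 without CAST_170 and 7725 without WSB_120, beside 7866 with all 12 animals, and lay between 6567 and 9066 over all alternatives. The shares of all genes called higher in each alternative are not given here.

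Members differed in abundance in much the same order in both strains. Per kilobase of annotated exon, Egr1 led in CAST with 75.5 ± 13.3 CPM per kb, then Arc with 66.6 ± 23.2, Nr4a1 with 43.4 ± 12.4, Junb with 36.2 ± 10.2 and Fos with 18.6 ± 6.37 (SD, n = 6). In WSB the same 5 genes led, with Arc at 64.0 ± 52.5 and Egr1 at 63.9 ± 25.02 CPM per kb, so that these 2 neighbours did not differ beyond their spread. The remaining 5 lay between 4.58 and 10.4 CPM per kb in CAST and between 3.82 and 7.58 CPM per kb in WSB. Counts may include intronic reads. Per kilobase of gene body the order changed for the longest gene models: Nr4a1 then ranked 5 and Dusp1 ranked 10 in each strain. The other gene models lie on chromosome 12 at 85473890-85477273 (Fos), chromosome 7 at 19302696-19310051 (Fosb), chromosome 8 at 84974484-84978718 (Junb) and 84661331-84662852 (Ier2), chromosome 18 at 34859823-34864984 (Egr1), chromosome 10 at 67535475-67542188 (Egr2), chromosome 15 at 74669083-74672570 (Arc) and chromosome 17 at 26505590-26562128 (Dusp1). Junb overlaps Prdx2 by 351 bases on the opposite strand, and Dusp1 overlaps Ergic1 by 640, so a few of their reads may belong to those genes.

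Animals of 1 strain differed in these genes by much more than animals usually did for genes of like abundance. The SD of log2 CPM between the 6 CAST animals was 0.26 for Egr1 and 0.40 to 0.58 for the other 9, and between the 6 WSB animals it lay between 0.35 for Fosb and 1.02 for Arc. The 1000 genes nearest in level had median SDs of 0.10 to 0.18 in CAST and 0.08 to 0.17 in WSB. The members stood at percentiles 85.6 to 98.3 of those genes in CAST and 95.8 to 100 in WSB. The 2 lanes of an animal differed by at most 0.34 log2 units for any member, with a median of 0.05. The spread thus lay between the libraries of different animals and not between sequencing runs of a library. Each animal had a single library index, so the animal and its tissue handling or library preparation cannot be told apart.

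A single CAST animal and a single WSB animal marked the extremes of nearly all members. CAST_170 had the lowest level of all 10 members within its strain, at a median of 0.78 log2 units below the strain mean, with a centred value of -1.02 for Arc and Fos. CAST_201 had the highest CAST level of 9 members, all but Ier2, at a median of 0.50 above the strain mean. WSB_120 had the highest WSB level of 9 members, all but Npas4, at a median of 0.74 above the mean and 1.69 above it for Arc. At the low end, WSB_138 was below the mean for all 10 members, at a median of -0.64. CAST_142, which stood apart in cerebellar markers, lay at a median of 0.24 above its strain mean, and WSB_100 at a median of -0.31.

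**Figure D3:**
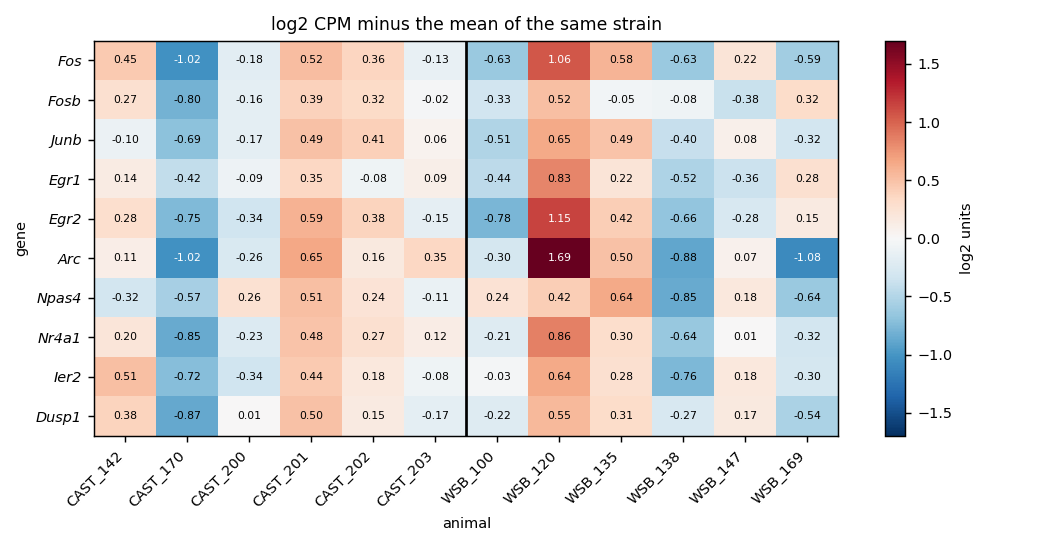
Log2 CPM of each immediate early gene (rows) minus the mean of the animal's own strain, for 6 CAST (left) and 6 WSB (right) animals (columns); red is above and blue below the strain mean, in log2 units, with the value printed in each cell. CAST_170 is blue and WSB_120 red in every row, and WSB_169 is mixed, with Fosb at 0.32 and Arc at -1.08.

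Some other measures were also extreme in these animals. WSB_120 had the highest summed level of 8 glucocorticoid targets, 752.5 CPM beside 468.1 to 563.1 CPM in the other WSB animals, and the highest sum of 4 oligodendrocyte markers, 4375 CPM beside 1826 to 3599 CPM; none of these genes was at 0. CAST_170 had 178.6 CPM of summed erythroid markers, beside 44.1 to 88.6 CPM in the other CAST animals, with 1 of those 5 markers, Alas2, listed at 0 and lying inside other genes. Its neuron markers summed to 4732 CPM, within the range of its strain. The part of these differences in the member levels was not tested. Between the strains, glucocorticoid targets summed to 397 to 561 CPM in CAST and 468 to 752.5 CPM in WSB. Of these 8 genes, 4 were called lower in CAST, beside 21.2% of all tested genes. Erythroid markers summed to 44.1 to 179 CPM in CAST and 32.7 to 87.5 CPM in WSB.

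Levels of the members rose and fell together between animals of a strain. Pearson's r of log2 CPM was computed for all 45 pairs over the 6 animals of each strain, with an exact two-sided permutation test (720 orders, smallest p 0.0014) adjusted over the 90 tests. In CAST all 45 pairs were positive with a median r of 0.903, and 23 passed the adjusted threshold. In WSB 44 of 45 were positive with a median r of 0.797, and 15 passed. By Spearman's rank correlation, 3 pairs passed in each strain, all with rho = 1 (adjusted exact permutation p 0.0417). Pairs with rho = 0.943 missed the threshold (adjusted p 0.0682). The median rho was 0.829 in CAST and 0.771 in WSB. The median r over all pairs of tested genes was 0.003 in CAST and 0 in WSB. An r above 0.8 was found in 77.8% of member pairs in CAST against 7.51% of all gene pairs, and in 48.9% of member pairs in WSB against 3.58% of all gene pairs.

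**Figure D4:**
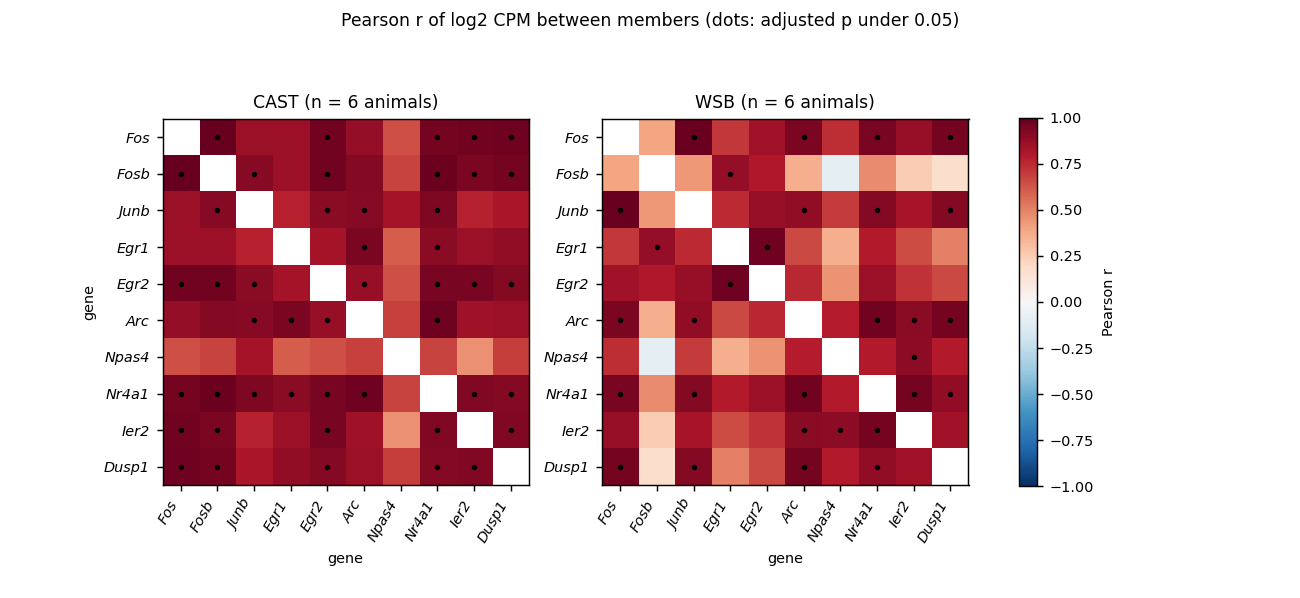
Pearson's r of log2 CPM for each pair of immediate early genes (rows and columns) over 6 CAST animals (left) and 6 WSB animals (right), with black dots where the adjusted exact permutation p was under 0.05. Npas4 has the palest row in CAST, with a median r of 0.672, and Fosb the palest row in WSB, with a median r of 0.391 and a value of -0.09 with Npas4.

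The co-variation was weaker with the extreme animals left out. After the 2 animals farthest from the median of the first gene of a pair were left out, 35 of 45 pairs stayed positive in each strain, with a median r of 0.501 in CAST and 0.517 in WSB. Leaving out extreme animals narrows the range of values, which by itself tends to lower r. These drops therefore do not show how much of the co-variation rested on such animals. The median r was 0.678 without CAST_170, and 0.856 to 0.933 with another CAST animal left out. It was 0.698 without WSB_120 and 0.901 without WSB_169. Without CAST_142, the library with cerebellar markers, the CAST median was 0.933, and without WSB_100 the WSB median was 0.854.

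Within CAST the tightest pair was Fos with Fosb, both AP-1 subunits, at r = 0.993 and rho = 0.943 over 6 animals (exact permutation p = 0.0042 and 0.0167; adjusted p 0.0278 and 0.0682). Without CAST_170 and CAST_201, r was 0.961. Nr4a1 followed Fosb in perfect rank order in CAST, with r = 0.982 and rho = 1 (exact permutation p = 0.0014 and 0.0028; adjusted p 0.0250 and 0.0417), and r was 0.827 without CAST_170 and CAST_200. Npas4 was the member least tied to the others in CAST, with a median r of 0.672 over its 9 pairs and a lowest r of 0.455, with Ier2. CAST_142 was below the strain mean for Npas4 by 0.32 log2 units and above it for Ier2 by 0.51.

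Within WSB the tightest pair was Fos with Junb, again AP-1 subunits, at r = 0.987 and rho = 1 (exact permutation p = 0.0014 and 0.0028; adjusted p 0.0250 and 0.0417), and r was 0.963 without WSB_120 and WSB_135. Egr1 with Egr2, members of a single family, reached r = 0.972 and rho = 0.886 (exact permutation p = 0.0056 and 0.0333; adjusted p 0.0278 and 0.100), with r = 0.913 without WSB_120 and WSB_138. Arc with Dusp1 had r = 0.954 and rho = 1 (exact permutation p = 0.0014 and 0.0028; adjusted p 0.0250 and 0.0417), with r = 0.933 without WSB_120 and WSB_169. Fosb was the member least tied to the others, with a median r of 0.391 and a single pair that passed, with Egr1 (r = 0.880, rho = 0.771; exact permutation p = 0.0208 and 0.103; adjusted p 0.0493 and 0.160). For that pair r was 0.471 without WSB_120 and WSB_169.

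Fos with Fosb, the tightest pair in CAST, had r = 0.391 and rho = 0.543 in WSB (exact permutation p = 0.413 and 0.297; adjusted p 0.437 and 0.339), and r was -0.518 without WSB_120 and WSB_135. Whether r differed between the strains was not tested. The 3 WSB animals with the lowest Fos, WSB_100, WSB_138 and WSB_169, had 14.59, 14.63 and 14.99 CPM of Fos but 20.1, 23.9 and 31.4 CPM of Fosb. The CAST animal with the lowest Fos, CAST_170, had 20.3 CPM of Fos and 15.8 CPM of Fosb.

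**Figure D5:**
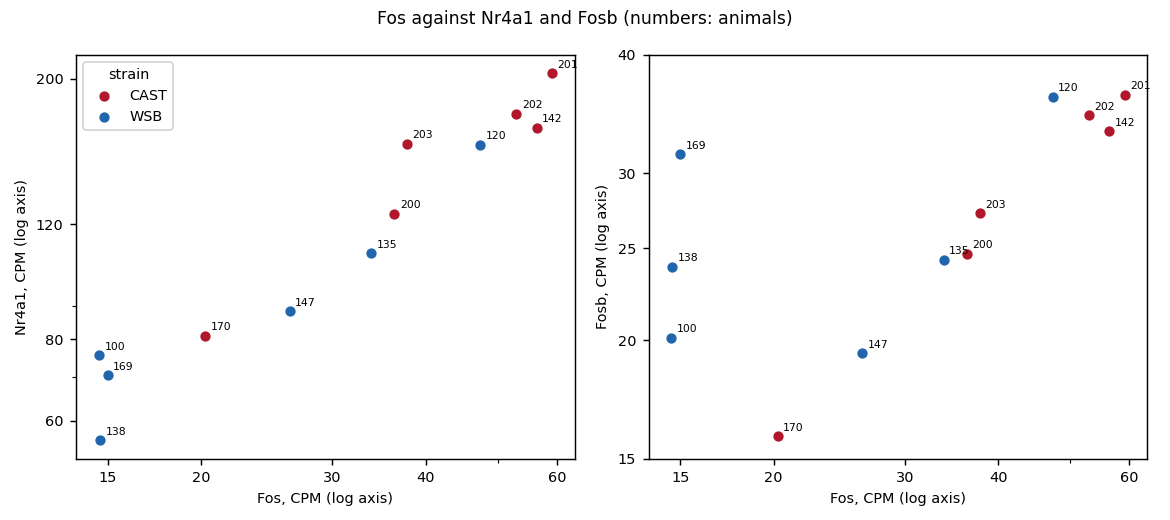
CPM of Nr4a1 (left panel) and Fosb (right panel) against CPM of Fos, both on log axes, for each of 6 CAST (red) and 6 WSB (blue) animals, labelled with their numbers. In the left panel animals of both strains lie along a common band, and in the right panel WSB_100, WSB_138 and WSB_169 lie above it, at under 15 CPM of Fos and 20.1 to 31.4 CPM of Fosb.

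Other genes were ranked by their mean Pearson r with the 10 members over 12 animals, after the mean of each strain was taken off, as a description. Ranked were 12432 genes outside the set with a mean log2 CPM of at least 1. Genes without an established symbol (a Gm number, Rik or clone name) were left out, whatever their r. The most alike was Arl5b, a small GTPase of the ARF-like family, with a mean r of 0.842. It was followed by Cr1l, a mouse complement regulator, at 0.8004, the cohesin acetyltransferase gene Esco1 at 0.786, Coq10b, a coenzyme Q binding protein gene, at 0.784, and Cys1, a gene of primary cilia, at 0.774. Tsc22d2 (0.773), Rell1 (0.772), Trib1 (0.770), Rcc1 (0.766) and Bmper (0.764) completed the first 10. The median over all ranked genes was 0.0135. Trib1, a pseudokinase gene, was the 1 of these 10 that stood on a list of known rapidly induced genes. Of the 10, Rcc1 alone was called between the strains, lower in CAST, with a log2 fold change of -0.39. Reads of Rcc1 and Arl5b may be shared with neighbours, since 74.2% and 74.5% of their bodies lie outside other genes. Every one of the 10 mean r values was lowest with WSB_120 left out, at 0.675 to 0.8001.

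Among further inducible transcription factors, Egr4, Nr4a3 and Fosl2 came closest to the members in their variation between animals, and few genes passed the test between strains. The list held 20 genes, of which 19 were tested and Csrnp1, which lies inside other genes, was listed at 0. Of these, 0 were called higher in CAST and 1 was called lower, beside 21.5% and 21.2% of all tested genes. At an unadjusted p under 0.05, 3 were higher in CAST (Jund, Klf2 and Btg2), and Klf10 and Atf3 were lower. At least 21.5% and 21.2% of all tested genes also pass that level, and the exact shares are not given here. DESeq2 called 2 higher and 1 lower, and over all genes 8253 in either direction. The gene that edgeR called lower was Klf10, a TGF-beta inducible repressor. It had 21.5 ± 4.73 CPM in 6 CAST brains, against 30.1 ± 7.65 CPM in 6 WSB brains (SD). Its log2 fold change was -0.48 ± 0.18 with an adjusted p of 0.0417 by edgeR. That call ended on lane 6 alone, with no filter, without CAST_142 and WSB_100 together (adjusted p 0.0593), and without CAST_142, CAST_200, CAST_202, WSB_120 or WSB_135 (adjusted p at most 0.0947). The median mean r of 18 ranked genes of the list with the members was 0.423. Egr4 at 0.711, Nr4a3 at 0.709 and Fosl2 at 0.707 are close relatives of members. Other close relatives lay lower, with Nr4a2 at 0.572, Jun at 0.349, Fosl1 at 0.337 and Egr3 at 0.295. At the low end were Myc at 0.015, Klf6 at -0.08 and Jund at -0.13. The list's median log2 fold change was 0.15, and single values that missed the threshold ran from -0.55 for Atf3 to 0.74 for Btg2 (adjusted p 0.0994 and 0.0580 by edgeR).

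Rapidly induced feedback regulators and effectors gave a mixed picture. Of 30 tested, 4 were called higher in CAST and 2 lower, and the median log2 fold change was 0.06. Both shares are below those over all tested genes, 21.5% higher and 21.2% lower. Ptgs2, which encodes the inducible cyclooxygenase COX-2 of excitatory neurons and inflamed tissue, had 18.7 ± 4.40 CPM in 6 CAST brains, against 6.68 ± 2.53 CPM in 6 WSB brains (SD), a log2 fold change of 1.48 ± 0.23 with separate ranges and an adjusted p of 0.000135 by edgeR. Ccn2, a matricellular growth factor gene, had 7.57 ± 1.12 CPM in 6 CAST brains, against 12.7 ± 1.63 CPM in 6 WSB brains (SD), a log2 fold change of -0.75 ± 0.11 with an adjusted p of 9.75e-05 by edgeR; only 48.6% of its body lies outside another gene. Ier3, a survival factor, and Dusp2, a nuclear MAP kinase phosphatase, were higher in CAST by 0.63 ± 0.13 and 0.90 ± 0.21 log2 units. The median mean r of 28 ranked genes of the list with the members was 0.501, with Sertad1 at 0.732 and Zfp36 at 0.716 after Trib1. The lowest was Rgs2 at -0.31.

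Later effectors of neuronal activity showed no called difference. Of 12 tested genes on that list, edgeR called 0 in either direction, and 0 had an unadjusted p under 0.05. Over all tested genes, edgeR called 21.5% higher and 21.2% lower. DESeq2 also called 0. Rasgrp1, the most abundant, had 522 ± 121 CPM in 6 CAST brains, against 581 ± 59.4 CPM in 6 WSB brains (SD), with a log2 fold change of -0.15 ± 0.15 and an adjusted p of 0.433 by edgeR. Their mean r with the members had a median of -0.02, beside 0.0135 over all ranked genes. Single genes ran from -0.32 for Scg2 to 0.40 for Pcsk1, so the list did not move as a block.

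Genes that act upstream of these promoters included strain differences of modest size. Of 31 tested, 6 were called higher in CAST and 1 lower, with a median log2 fold change of 0.02. Over all tested genes, 21.5% were called higher and 21.2% lower. The share called higher is thus close to the background, and the share called lower is below it. Srf lies wholly inside other genes and was listed at 0, so it could not be measured here. Elk3, an ETS partner of the serum response factor, had 11.95 ± 1.06 CPM in 6 CAST brains, against 7.50 ± 1.10 CPM in 6 WSB brains (SD), a log2 fold change of 0.67 ± 0.10 with separate ranges; 69.2% of its body lies outside another gene. Atf1, a CREB relative that binds the same element, had 23.1 ± 1.996 CPM in 6 CAST brains, against 17.4 ± 1.495 CPM in 6 WSB brains (SD), a log2 fold change of 0.41 ± 0.07 with separate ranges. The kinase gene Rps6ka2 was lower in CAST by 0.40 ± 0.08 log2 units and Map2k2, a MAP kinase kinase gene, higher by 0.18 ± 0.04. Adjusted p values by edgeR were 8.23e-05 for Elk3, 0.000356 for Atf1, 0.000820 for Rps6ka2 and 0.00143 for Map2k2. The median mean r of the genes of this list with the members was -0.05, with single genes from -0.62 for Rps6ka2 to 0.69 for Elk4.

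Of 12 dimer partners and corepressors of the encoded factors, 2 were called higher in CAST and 3 lower. These shares are close to the background of 21.5% higher and 21.2% lower over all tested genes. Jdp2, which binds AP-1 sites as a repressor, had 42.9 ± 4.36 CPM in 6 CAST brains, against 70.6 ± 9.39 CPM in 6 WSB brains (SD), a log2 fold change of -0.72 ± 0.09 with an adjusted p of 1.87e-05 by edgeR. Arnt, a dimer partner of bHLH-PAS factors, had 80.4 ± 8.25 CPM in 6 CAST brains, against 108 ± 9.76 CPM in 6 WSB brains (SD), a log2 fold change of -0.43 ± 0.07 with an adjusted p of 0.000313 by edgeR. Nab1, a corepressor of Egr factors, was higher in CAST by 0.20 ± 0.06 log2 units, and Batf, an AP-1 factor of immune cells at under 1 CPM, by 1.35 ± 0.33. Arnt2, the partner of Npas4 in neurons, had 415 ± 59.2 CPM in 6 CAST brains, against 477 ± 67.5 CPM in 6 WSB brains (SD), with an adjusted p of 0.167 by edgeR.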

How the data were processed

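RNA from the brains of 12 mice, 6 CAST and 6 WSB, was sequenced on lanes 5 and 6, giving 24 files. The deposited values are raw counts of reads per gene, not normalized, per the labels and the values in the files. TopHat2 2.1.1, HTSeq, cutadapt and DESeq2 are listed, per the submitters' processing notes, with no role for each. Build and annotation: not given in the sources used here. Symbols and coordinates are from GENCODE M21 (GRCm38), which holds 53274 of 53465 listed identifiers. Counts may include intronic reads and do not separate overlapping genes: 91.7% of the Junb body and 97.2% of the Dusp1 body lie outside other genes, and those of the other 8 members lie wholly outside. The 5 counters that name no gene were left out of library sizes; genes hold 62.9% to 68.0% of what was counted.

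The lanes of an animal were summed. The 2 lanes differed little more than counting noise allows (chi-square per degree of freedom 1.09 to 1.40 over genes with at least 20 reads), and no files were identical. The 12 animals were treated as separate, as numbered. Both lanes hold all animals.

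The strain contrast used the robust quasi-likelihood test of edgeR 4.0.16 (R 4.3.3) with TMM scaling and the default filter. CPM values are TMM-scaled; log2 CPM used a prior count of 2. Alternatives were DESeq2 1.42.0, other scalings, no filter, single lanes, each animal left out and CAST_142 with WSB_100 left out. Correlations used exact permutation over the 6 animals of a strain. The named genes are all 10 members, up to 4 called genes with the smallest p on each related list (or its most abundant gene), and the 10 genes most alike; others were chosen after their values were seen. The members and lists were chosen with earlier results of these data known. The tests were checked on simulated data.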

Additional observations from a re-analysis of the deposited data

Results flagged for a closer look

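Arc in WSB_120, at 504 CPM, lay far from the other 5 WSB animals, of which the next highest had 221 CPM. On the linear CPM scale, its distance to that animal was 0.658 of the whole WSB range, above the 95% critical value of Dixon's test for 6 animals. The test was not run on log2 CPM, the scale of the spreads and correlations above. There Arc was 8.98 in WSB_120, 7.79 in the next highest, WSB_135, and 6.20 in the lowest, WSB_169. The flag therefore holds for the linear scale only. The 10 members in 2 strains gave 20 groups, of which 1 was flagged; chance flags about 1 in 20. The same animal had the highest WSB level of 9 members, and its highest glucocorticoid target and oligodendrocyte marker sums are given above; their part in the Arc level was not tested.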

How the results depend on the processing

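The number of genes called between the strains stayed within 1.5 times of 7866 under every alternative, as did the count of 0 members lower in CAST. Members called higher numbered 2; they numbered 4 with DESeq2, 1 with no filter on low counts, 1 without CAST_142 and WSB_100 together, and between 1 and 6 with each animal left out in turn. The cause was not tested. The Arc log2 fold change of 0.06 reversed to -0.0497 without CAST_142 and WSB_100, and with single animals left out it ranged from -0.11 to 0.60; it was -0.09 without CAST_201, -0.00096 without CAST_203, -0.04 without WSB_100, -0.10 without WSB_138 and -0.11 without WSB_169. No other member changed sign. With single animals left out, the median pair r ranged from 0.678 to 0.933 in CAST and from 0.698 to 0.901 in WSB. Pairs passing by Pearson's r numbered 23 to 26 in CAST and 13 to 15 in WSB over all alternatives. By Spearman's rho, 0 passed in either strain with library size alone or a single lane, against 3. With 6 animals only pairs in perfect rank order passed, so that count does not measure how strong the rank correlation was. The median rho was 0.771 to 0.829 in CAST and 0.771 in WSB over these settings. No paired analysis was possible because the animal numbers are not shared between the strains. Precision was limited by the spread between animals, or between their libraries, and not by depth. Standard errors of the member fold changes were 0.20 to 0.43 log2 units, while counting error was at most 9.62%.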

Other observations

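Ratios between members cancel part of what moves all of them in an animal. These 45 ratios were chosen after the values were seen. With strain labels permuted over the 12 animals in an exact two-sided test, 11 had an unadjusted p under 0.05 and 0 passed adjustment over the 45. The CPM ratio of Fosb to Nr4a1 was the only one with separate ranges, 0.171 to 0.198 in CAST and 0.219 to 0.446 in WSB. The log2 difference was -0.61 (exact permutation p = 0.0022, the smallest the design allows; adjusted p 0.0974), and it lay between -0.69 and -0.48 with each animal left out. The ratio of Fosb to Fos was 0.589 to 0.782 in CAST, against 1.38, 1.63 and 2.096 in WSB_100, WSB_138 and WSB_169 and 0.719 to 0.763 in the other 3 WSB animals. Its log2 difference of -0.73 had an exact permutation p of 0.0195 (adjusted p 0.195).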
